A study of Mus musculus with 10 samples.

Results

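The 10 genes described here are enzymes and receptors that handle ATP, adenosine and purine breakdown outside and inside cells. They are Entpd1, Nt5e, Ada, Dpp4, Pnp, Xdh, Adora1, Adora2a, Adora2b and P2rx7, taken from a list of symbols and found as 10 of the 17864 genes in the count table. The list was chosen by role, with the expression difference of Xdh between sgTaz and sgCon tumors already known. For this reason the differences of all 10 genes between the groups are given as a description, without a test. Reads were enough in 9 of the 10, and 14816 genes of the table passed the same filter.

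RNA was sequenced from whole tumors grown from 4T1, a mouse mammary carcinoma line often used as a model of triple-negative breast cancer. All tumors came from 4T1 cells carrying Cas9, and the groups differed in the guide RNA, which was a control guide in 5 sgCon tumors and a guide against Wwtr1, the gene of the Hippo pathway transducer TAZ, in 5 sgTaz tumors. According to the methods, the hosts were female BALB/c or SCID mice aged 6 to 8 weeks, with the cells placed in the mammary fat pad. The labels do not give the strain or age of the mice behind the sequenced tumors, and neither labels nor methods say whether the edited cells were a clone or a pool. The guide acted in the injected cells and not in the cells of the host, while the RNA came from both. Nothing states that the tumors of a group came from separate mice, so errors measure the spread between these tumors. In whole tumors, fewer cells of a type and less RNA per cell cannot be told apart.

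Extracellular ATP is a danger signal that opens the P2X7 channel of myeloid cells. CD39 (Entpd1) and CD73 (Nt5e) strip its phosphates in sequence and leave adenosine, which dampens T cells and myeloid cells through its receptors, best known for the one encoded by Adora2a. Adenosine deaminase (Ada) turns adenosine into inosine, purine nucleoside phosphorylase (Pnp) frees hypoxanthine, and xanthine dehydrogenase (Xdh) oxidises this to xanthine and urate. In tumors this chain is studied as a brake on immunity, and in the lactating mammary gland XDH protein also takes part in the secretion of milk fat droplets.

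Total counts were 14753922 to 19595821 in sgCon tumors (median 17155103) and 12185383 to 18395558 in sgTaz tumors (median 15566873). Levels below are CPM, the count of a gene scaled to the TMM-normalized total of its tumor, unless stated otherwise. Wwtr1 stood at 163.1 ± 30.2 CPM (SD, n = 5) in sgCon and 108.1 ± 19.2 CPM (SD, n = 5) in sgTaz tumors, with overlapping groups. The label calls the samples tumor cells, and all 10 epithelial markers and all 10 macrophage markers examined were expressed above the filter. The sgTaz tumor 5 stood apart. Its lymph node stroma score, the mean log2 CPM of 5 genes, was 5.35, against −2.12 to −0.59 in the other sgTaz tumors and 2.52 to 6.76 in the sgCon tumors, and results are also given without it. Over all genes tested, the median log2 fold change of sgTaz over sgCon was −0.02, with the middle 50% between −0.20 and 0.15.

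Promoter sequences are shown for Entpd1, P2rx7 and Dpp4, which varied with immune cell markers among the tumors, as described further on, and whose windows held the letters searched. They are RefSeq windows on GRCm38.p6 from 250 bases before to 50 bases after an annotated start, written 5′ to 3′ on the strand of the gene. Capitals mark GAGGAA or its reverse complement TTCCTC, a core bound by PU.1, the factor of macrophage identity, and GGAATG or its reverse complement CATTCC, the core bound by TEAD proteins, through which TAZ reaches DNA. The letters were searched on both strands. A match to one can overlap a match to the other, which did not occur in these windows.
Entpd1, chr19:40659520-40659819, plus strand: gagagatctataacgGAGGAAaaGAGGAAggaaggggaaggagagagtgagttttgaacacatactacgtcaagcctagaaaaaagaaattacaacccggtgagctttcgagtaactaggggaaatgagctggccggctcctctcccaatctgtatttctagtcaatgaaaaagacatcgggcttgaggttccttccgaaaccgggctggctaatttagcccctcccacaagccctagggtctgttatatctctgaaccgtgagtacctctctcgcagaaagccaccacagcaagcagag
P2rx7, chr5:122643677-122643976, plus strand: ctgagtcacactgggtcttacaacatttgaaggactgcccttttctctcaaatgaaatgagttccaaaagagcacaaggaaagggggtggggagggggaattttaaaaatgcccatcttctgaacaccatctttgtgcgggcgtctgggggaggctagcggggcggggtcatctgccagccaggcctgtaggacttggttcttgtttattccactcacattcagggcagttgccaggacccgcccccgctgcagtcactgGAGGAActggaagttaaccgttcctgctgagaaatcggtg
Dpp4, chr2:62412182-62412481, minus strand: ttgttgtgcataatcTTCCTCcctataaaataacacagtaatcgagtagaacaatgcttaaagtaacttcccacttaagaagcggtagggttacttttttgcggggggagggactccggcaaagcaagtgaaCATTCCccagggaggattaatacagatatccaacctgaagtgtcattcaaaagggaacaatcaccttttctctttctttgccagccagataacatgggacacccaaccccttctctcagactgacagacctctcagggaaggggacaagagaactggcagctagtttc
The Entpd1 window belongs to a start inside the gene and holds GAGGAA at 2 places, beginning at −235 and −227 from the start. In P2rx7 the letters begin 10 bases after the start, counted as 0. In Dpp4 the TEAD core begins at −118 and the PU.1 core at −235. Windows were found for 8 of the 10 genes, 11 windows in all, with none for Xdh and Adora2a. The PU.1 core was in 4 of the 11 (1 of Entpd1, 1 of Dpp4, both of P2rx7) and in 28.3% of the 32851 windows of the table. The TEAD core was in 2 of the 11, 1 of Dpp4 and 1 of Adora1, and in 14.7% of all windows. Neither core was in the other Entpd1 window or in those of Pnp and Ada, which also varied with the macrophage score. These letters are a description of the windows and say nothing of binding in these tumors.

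Of the 10 genes, Xdh separated the groups. Entpd1 and P2rx7 were higher in most sgTaz tumors with some overlap, Dpp4 and Adora2a were lower on average with wide overlap, and Nt5e, Ada, Pnp and Adora2b had fold changes of sgTaz over sgCon between 0.972 and 1.06. Adora1 was too low to compare.

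**Figure D1:**
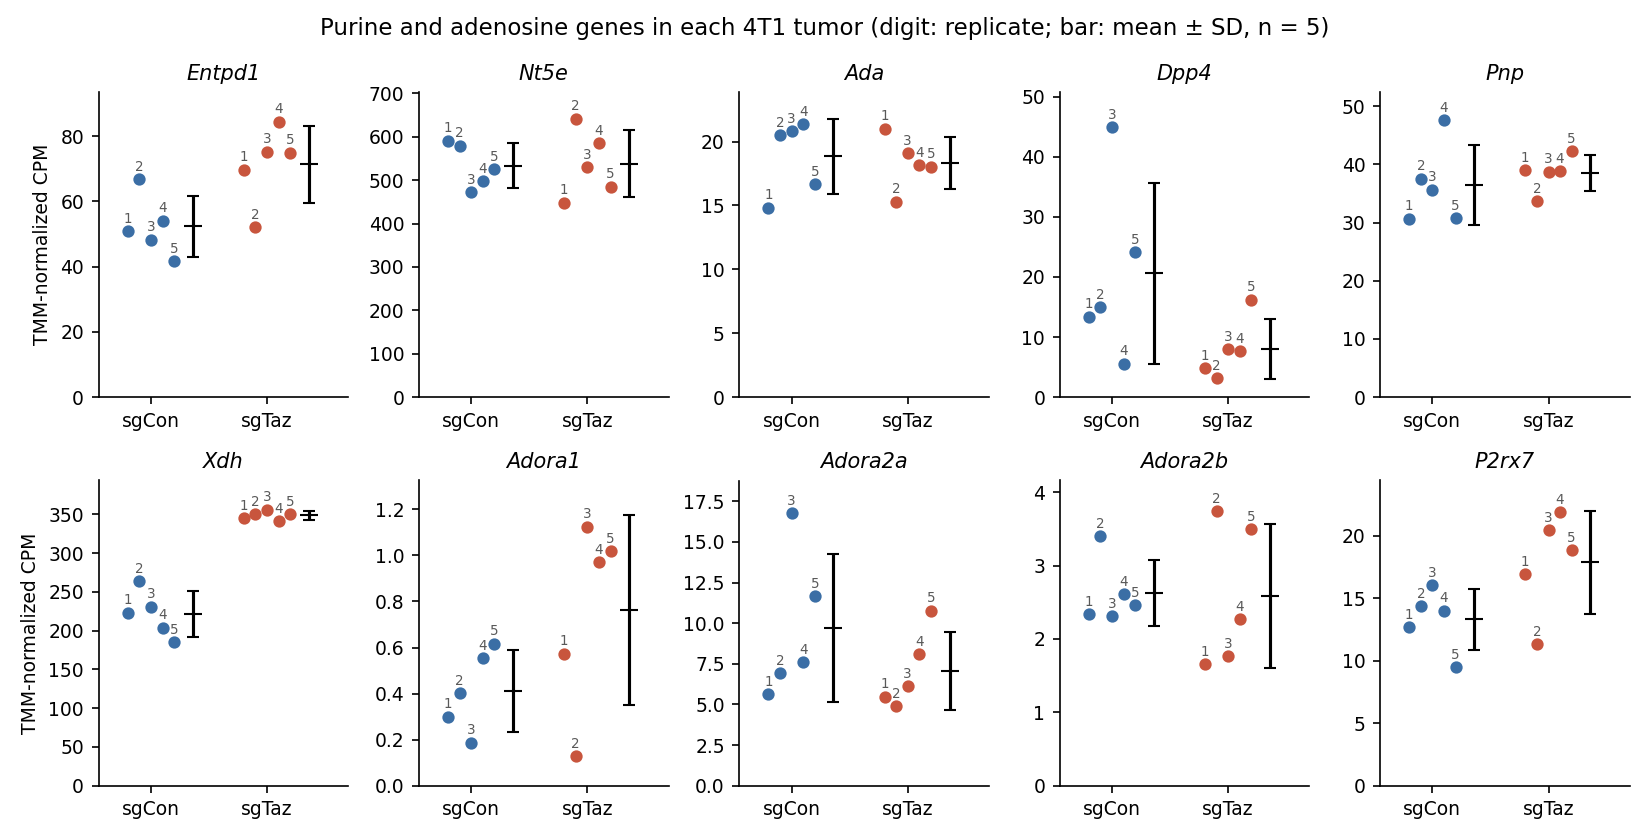
TMM-normalized CPM of the 10 genes in each tumor, with 5 sgCon tumors in blue and 5 sgTaz tumors in red, digits for replicate numbers and bars for the mean ± SD. Xdh is at 185 to 264 CPM in sgCon and 342 to 356 CPM in sgTaz tumors, and the other 9 genes overlap between the groups.

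Xdh (ENSMUSG00000024066.9, chromosome 17 of mm10 from 73883895 to 73950196, minus strand), the last enzyme of the chain to urate, stood at 223, 264, 231, 204 and 185 CPM in sgCon tumors 1 to 5. In sgTaz tumors 1 to 5 it stood at 345, 351, 356, 342 and 350 CPM. Every sgTaz tumor was above every sgCon tumor, and the sgTaz tumors were nearly alike. The means were 221.6 ± 29.6 and 348.7 ± 5.68 CPM (SD, n = 5 each), a 1.57-fold higher level in sgTaz tumors with a log2 fold change of 0.65 (standard error 0.089). It was 0.65 without sgTaz tumor 5 as well, and between 0.60 and 0.73 over 17 alternatives of test, scaling, filter and tumors. Xdh shares no exon base with another annotated gene.

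The spread of Xdh differed between the groups. Its coefficient of variation was 13.3% in sgCon tumors and 1.63% in sgTaz tumors. Counting error alone would give about 1.62% and 1.37% at the mean counts of the groups, so the sgTaz value was near that floor. The 632 genes within 1.5-fold of its mean level had medians of 11.7% and 8.64%, and 0.949% of them had a lower coefficient than Xdh in sgTaz tumors. This comparison was made after the values of Xdh had been seen.

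Upstream of Xdh, the enzymes that make and remove adenosine showed no common direction. Entpd1 (ENSMUSG00000048120.16, chromosome 19 from 40612366 to 40741602, plus strand) encodes CD39, the first ectonucleotidase of the chain. It stood at 50.9, 66.8, 48.3, 54.1 and 41.8 CPM in sgCon tumors 1 to 5 and at 69.8, 52.2, 75.3, 84.5 and 74.9 CPM in sgTaz tumors 1 to 5. Of the sgTaz tumors 4 of 5 were above all sgCon tumors, and tumor 2 was within their range. The means were 52.4 ± 9.26 and 71.3 ± 11.9 CPM (SD, n = 5 each), with a log2 fold change of 0.44 (standard error 0.14), or 0.43 without sgTaz tumor 5.

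Nt5e (ENSMUSG00000032420.8, chromosome 9 from 88327197 to 88372092, plus strand) encodes CD73, which makes adenosine from AMP. Its levels were 591, 580, 472, 498 and 526 CPM in sgCon and 448, 642, 531, 585 and 485 CPM in sgTaz tumors. The sgTaz tumors lay on both sides of the sgCon range. The means were 533.6 ± 51.3 and 538.0 ± 77.3 CPM (SD, n = 5 each), and the log2 fold change was 0.01 (standard error 0.11).

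Ada (ENSMUSG00000017697.3, chromosome 2 from 163726584 to 163750239, minus strand), which removes adenosine, held 14.8, 20.5, 20.8, 21.4 and 16.6 CPM in sgCon and 21.003, 15.3, 19.1, 18.1 and 18.04 CPM in sgTaz tumors. All 5 sgTaz tumors were within the sgCon range. Its means were 18.8 ± 2.92 and 18.3 ± 2.06 CPM (SD, n = 5 each), with a log2 fold change of −0.04 (standard error 0.13).

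Pnp (ENSMUSG00000115338.2, chromosome 14 from 50931082 to 50965237, plus strand), the step from inosine to hypoxanthine, was at 30.7, 37.5, 35.6, 47.6 and 30.7 CPM in sgCon and 39.0, 33.6, 38.7, 38.8 and 42.2 CPM in sgTaz tumors. Here too every sgTaz tumor was within the sgCon range. The log2 fold change was 0.08 (standard error 0.12). Its value is uncertain, since 718 exon bases are shared with Gm49342 on the same strand and 356 with Gm38316 on the other, and its near copy Pnp2 lies within its span.

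Dpp4 (ENSMUSG00000035000.8, chromosome 2 from 62330073 to 62412231, minus strand) encodes CD26, a peptidase of T cells and other cells that binds adenosine deaminase in humans. It varied most of the genes that passed the filter, at 13.4, 15.02, 44.9, 5.55 and 24.1 CPM in sgCon and 4.84, 3.16, 7.98, 7.69 and 16.2 CPM in sgTaz tumors. The sgCon tumor 3 was the highest, sgTaz tumor 5 the highest of its group, and 2 of 5 sgTaz tumors were below all sgCon tumors. The means were 20.6 ± 15.1 and 7.98 ± 5.03 CPM (SD, n = 5 each), a log2 fold change of −1.37 (standard error 0.54). It was −1.79 without sgTaz tumor 5 and −0.85 without sgCon tumor 3. The gene shares 232 exon bases with the antisense Gm13561, and the methods do not state whether counting used the strand.

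The receptors split in the same way. P2rx7 (ENSMUSG00000029468.17, chromosome 5 from 122643911 to 122691432, plus strand), the ATP-gated channel that triggers the inflammasome in macrophages, was at 12.7, 14.4, 16.03, 13.99 and 9.45 CPM in sgCon tumors. In sgTaz tumors it was at 16.9, 11.3, 20.4, 21.8 and 18.8 CPM. As for Entpd1, 4 of 5 sgTaz tumors were above all sgCon tumors and tumor 2 was the exception. The means were 13.3 ± 2.46 and 17.9 ± 4.10 CPM (SD, n = 5 each), and the log2 fold change was 0.42 (standard error 0.19), or 0.41 without sgTaz tumor 5. An annotated microRNA, Mir8115, shares 119 of its exon bases.

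Adora2a (ENSMUSG00000020178.6, chromosome 10 from 75316877 to 75334784, plus strand), the receptor through which adenosine restrains T cells, was at 5.64, 6.91, 16.8, 7.60 and 11.6 CPM in sgCon and 5.47, 4.91, 6.11, 8.09 and 10.8 CPM in sgTaz tumors. The highest tumor of each group was the same as for Dpp4. The means were 9.72 ± 4.54 and 7.07 ± 2.39 CPM (SD, n = 5 each), with a log2 fold change of −0.46 (standard error 0.32), −0.66 without sgTaz tumor 5 and −0.16 without sgCon tumor 3.

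Adora2b (ENSMUSG00000018500.2, chromosome 11 from 62248984 to 62266453, plus strand), the low-affinity receptor, was at 2.34, 3.40, 2.31, 2.61 and 2.47 CPM in sgCon and 1.65, 3.75, 1.77, 2.27 and 3.49 CPM in sgTaz tumors. The sgTaz tumors again lay on both sides of the sgCon range, and the log2 fold change was −0.03 (standard error 0.27). Adora1 (ENSMUSG00000042429.8, chromosome 1 from 134199223 to 134235431, minus strand), the receptor that lowers cyclic AMP, did not pass the filter. It had 3 to 10 counts in sgCon and 2 to 21 counts in sgTaz tumors, or 0.412 ± 0.177 and 0.763 ± 0.412 CPM (SD, n = 5 each), and 1162 of its exon bases overlap Mybph on the opposite strand. No difference of Adora1 could be detected at this depth.

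The number of these genes past a threshold was set beside all genes, with nothing read from it. The list was chosen with the difference of Xdh known, so a call is no support for it. With edgeR's quasi-likelihood test, 0 of 9 had a Benjamini-Hochberg adjusted p below 0.05, where 1 of 14816 genes did (0.00675%, all of it higher in sgTaz, and 0% lower). At an unadjusted p below 0.05, 4 of 9 passed, 3 higher and 1 lower, against 21.8% of all genes (9.86% higher, 11.9% lower). DESeq2 called 1 of 10, as higher, against 6.75% of 16075 genes (3.28% higher, 3.47% lower). The limma-voom fit with sample quality weights called 3 of 9, all as higher, against 10.4% of all genes (4.63% higher, 5.8% lower). The groups did not overlap in 1 of 9, Xdh, against 4.57% of all genes (2.44% with sgTaz above, 2.13% below). Without sgTaz tumor 5 it was again Xdh, against 8.21% (3.31% above, 4.89% below).

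Levels of different genes were compared as FPKM, the CPM divided by the summed exon length in kilobases. In sgCon tumors Nt5e was highest at 62.0 ± 5.97 FPKM (SD, n = 5), Xdh followed at 24.1 ± 3.22 FPKM, and the ranges of these 2 genes did not overlap. Ada, Entpd1 and Pnp formed a level at 9.41, 9.39 and 9.16 FPKM with overlapping ranges, clear of Xdh above and Dpp4 below. Dpp4, Adora2a, P2rx7 and Adora2b followed at 3.26, 3.17, 2.23 and 1.42 FPKM, with each range overlapping the next. Adora1 was last and clear of the rest at 0.0712 FPKM.

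In sgTaz tumors the order by FPKM began in the same way, with Nt5e at 62.5 ± 8.99 and Xdh at 38.0 ± 0.619 (SD, n = 5 each), again without overlap. Entpd1, Pnp and Ada came next at 12.8, 9.67 and 9.15 FPKM, and neighbours overlapped. P2rx7, Adora2a, Adora2b and Dpp4 followed at 2.99, 2.31, 1.40 and 1.26 FPKM, also with overlap between neighbours, and Adora1 was at 0.132 FPKM. Per length, Nt5e, whose enzyme makes adenosine, was thus above Ada, whose enzyme removes it, in both groups.

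**Figure D2:**
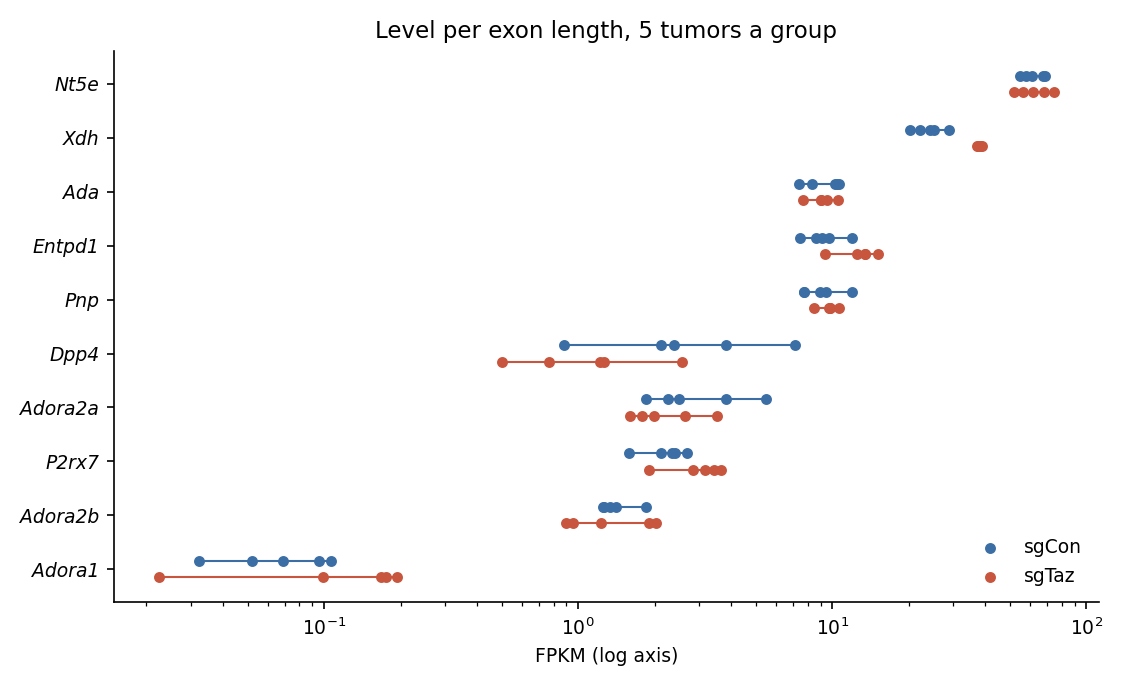
FPKM of the 10 genes on a log axis, ordered by the sgCon mean, with a point for each tumor and a line from the lowest to the highest of 5. Nt5e and Xdh stand clear of the rest in both groups, and Adora1 lies below 0.2 FPKM in all 10 tumors.

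The tumors were then compared after the mean of each group was taken off the log2 CPM, so that a relation did not rest on the difference between sgTaz and sgCon. Over these 10 tumors, which share library and depth for every gene, Pearson's r was 0.82 between Entpd1 and P2rx7, 0.82 between Dpp4 and Adora2a, and 0.76 between Ada and Pnp. Nt5e went against Ada, at −0.68. With Xdh the highest r of another of these genes was 0.54, for Entpd1. Each r is a description of 10 tumors and carries no test.

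Against scores of cell type markers, each the mean log2 CPM of a list of genes, the same pairs stood together. Entpd1 and P2rx7 went with the macrophage score (r = 0.84 and 0.72), and so did Pnp (0.84) and Ada (0.69). Dpp4 went with the T cell score (0.93), the B cell score (0.85) and the lymph node stroma score (0.85), and Adora2a with the T cell score (0.83). Dpp4 and Adora2a also went with a list of milk fat and milk protein genes (0.93 and 0.80), for Dpp4 as closely as with the T cell score. Only 4 of 10 genes of this list passed the filter. Csn1s1, Csn2, Lalba, Btn1a1 and Cidea were below it, and Wap was not in the table. Nt5e went with the epithelial score (0.72), which Ada (−0.87) and P2rx7 (−0.71) opposed. The highest for Xdh was again the macrophage score, at 0.54. Leaving out sgTaz tumor 5 moved no quoted r between a gene and the score it was highest with by 0.2 or more. No r was computed with any other tumor left out. How far those of Dpp4 and Adora2a rest on the sgCon tumor highest in both genes was therefore not tested.

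**Figure D3:**
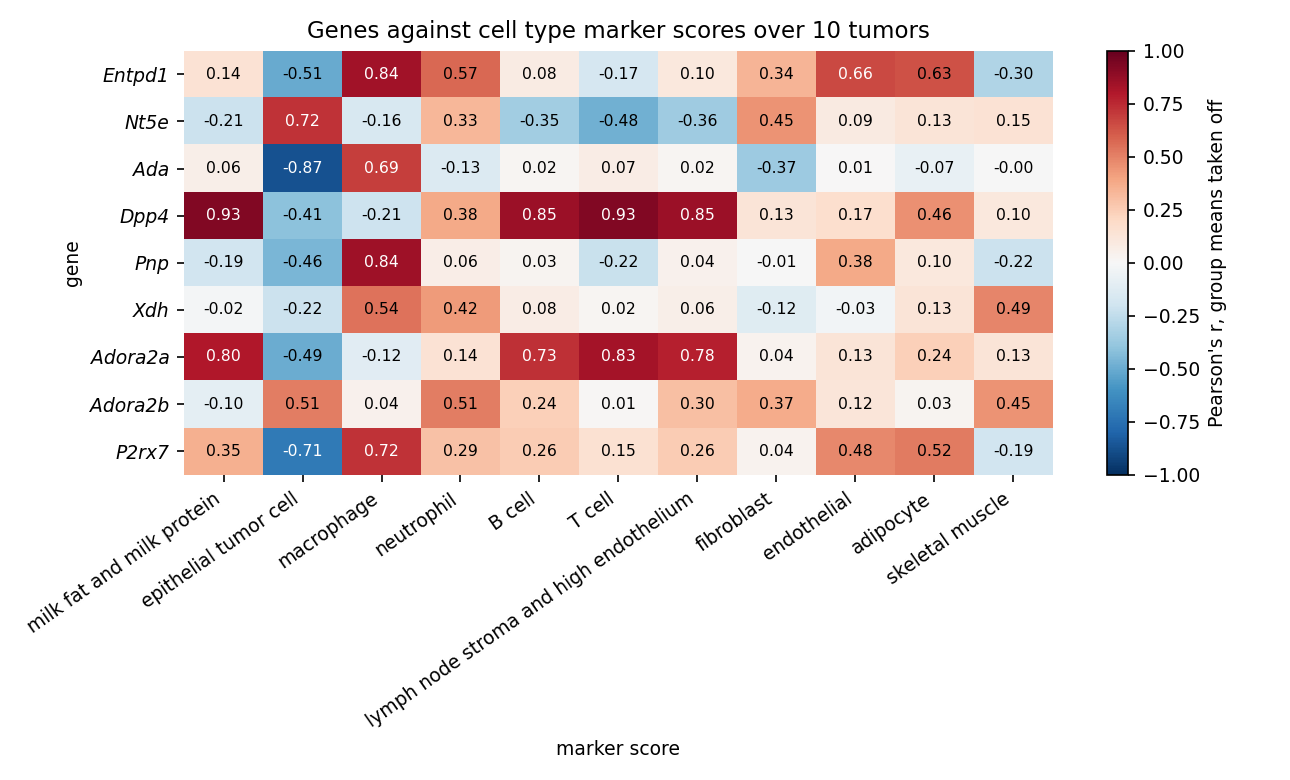
Pearson's r between the log2 CPM of 9 genes (rows) and 11 marker scores (columns) over 10 tumors after group means were taken off, with red for positive and blue for negative values. Entpd1, Pnp, P2rx7 and Ada are red under macrophage, and Nt5e under the epithelial score. Dpp4 and Adora2a are red under the milk fat and milk protein, B cell, T cell and lymph node scores.

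The values of these marker scores in each group follow, as a description. The groups overlapped in each of the 4 scores given, and edgeR's quasi-likelihood test called 0 markers of these lists. For T cells and B cells the overlap of the scores rested on sgTaz tumor 5. Without it the T cell score was 2.98 to 3.50 in sgTaz and 3.59 to 6.58 in sgCon tumors. The B cell score was then −2.17 to 0.74 in sgTaz and 2.77 to 6.65 in sgCon tumors. At an unadjusted p below 0.05 edgeR had 5 macrophage markers higher and 7 T cell, 6 B cell and 4 epithelial markers lower. DESeq2 called 3, 3, 0 and 1 of these lists and limma-voom 4, 3, 8 and 2. Of all genes, 21.8% had an unadjusted p below 0.05 in edgeR (9.86% higher, 11.9% lower). DESeq2 called 6.75% of all genes and limma-voom 10.4%, and 47.0% of all genes were higher in sgTaz tumors. The macrophage score was 6.54 ± 0.43 in sgCon and 7.06 ± 0.19 in sgTaz tumors (SD, n = 5 each), with 9 of 10 markers higher and a summed level of 852 to 1920 CPM against 1584 to 2207 CPM. The T cell score was 4.93 ± 1.14 and 3.56 ± 0.73, with 8 of 8 markers lower and sums of 129 to 872 CPM against 97.4 to 259 CPM. For B cells, 8 of 8 markers were lower, with sums of 64.6 to 875 CPM against 0.955 to 13.8 CPM in sgTaz tumors 1 to 4 and 201.3 CPM in tumor 5. The epithelial score was 7.51 ± 0.60 and 6.93 ± 0.66, with 10 of 10 markers lower and sums of 2157 to 5171 CPM against 1654 to 4064 CPM. The part of these cell types in the values of Entpd1, P2rx7, Dpp4 and Adora2a was not tested.

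For each gene, up to 3 protein-coding genes with a pattern most like it are given, found among 12930 genes with a mean of at least 1 CPM, by the same r over 10 tumors. For Xdh these were Snx1 (0.94), Ccl2 (0.93) and Slc41a3 (0.89), for Entpd1 Svip (0.96) and Pcyt1a (0.96), and for P2rx7 Rassf4 (0.96), Ociad1 (0.95) and Atg13 (0.95). Dpp4 was most like Slco3a1 (0.99) and Gm42372 (0.99), and Adora2a most like Ptp4a3 (0.97), Tbc1d22b (0.96) and Rubcnl (0.95). Ada was most like C1qtnf12 (0.98), Vegfc (0.97) and Rbpms (0.96), and Pnp most like Hsd17b11 (0.98), Scamp5 (0.95) and Adam15 (0.95). Nt5e was most like Add2 (0.98), Fbxl5 (0.92) and Adssl1 (0.92), and Adora2b most like Crem (0.95), Coa4 (0.91) and Ppp3r1 (0.91). Each of these values is the top of a ranking over 12930 genes.

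Beyond these 10, 89 genes of the wider pathway were listed in 13 groups, of which 77 were in the table (Adk stands in 2 groups) and 68 passed the filter. In edgeR's quasi-likelihood test, 0 of 68 had an adjusted p below 0.05, and 12 had an unadjusted p below 0.05 (8 higher, 4 lower), against 21.8% of all genes. Of the 68, 42 were higher and 26 lower in sgTaz tumors, where 47.0% of all genes were higher, and the median log2 fold change was 0.04 against −0.02 over all genes. DESeq2 called 3 of 71, against 6.75% of all genes, with Casp1 higher and Slc17a9 and Ampd1 lower. The limma-voom fit called 7 of 68, against 10.4% of all genes, with Cd38, P2rx4, Slc29a3 and Casp1 higher and Uox, P2ry10 and Slc17a9 lower. The groups did not overlap in 0 of the 68, against 4.57% of all genes. The counts of called and of not overlapping genes were near or under those of all genes. The 42 of 68 that were higher stood above the 47.0% of all genes, a difference that was not tested. The split moved with the fit, from 36 higher and 33 lower without sgTaz tumor 2 to 48 higher and 28 lower without a filter on low counts.

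**Figure D4:**
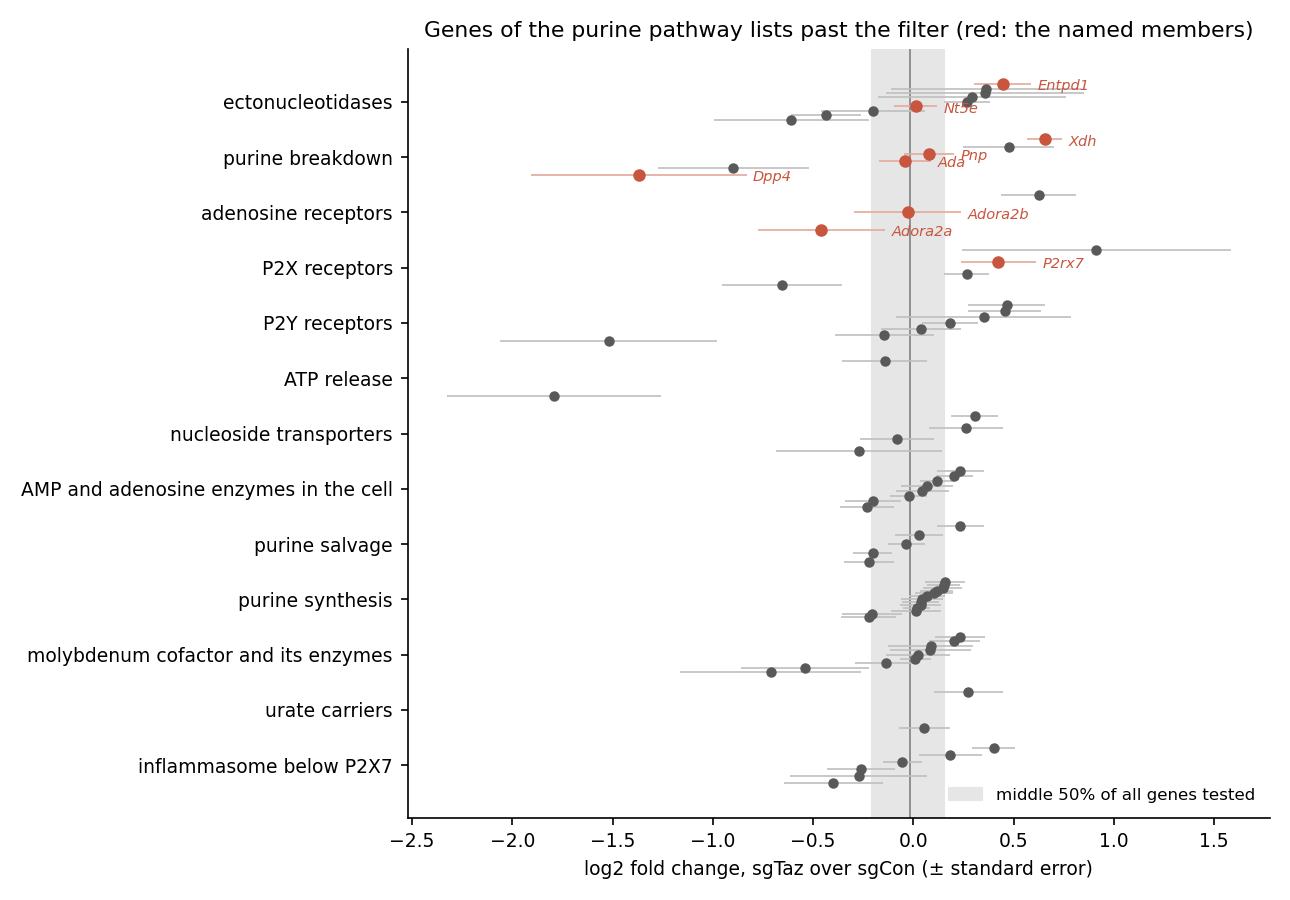
Log2 fold change of sgTaz over sgCon (± standard error, edgeR) for each gene of 13 pathway lists that passed the filter, with the 9 of the 10 genes that passed the filter in red and the middle 50% of all genes tested in grey. Xdh at 0.65 lies to the right of the grey band with a short error bar, while the genes of purine synthesis and salvage lie within or near it.

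On the ATP side, Slc17a9, the transporter that loads ATP into vesicles, averaged 8.41 ± 5.97 CPM (SD, n = 5) for sgCon and 2.42 ± 1.60 CPM (SD, n = 5) in sgTaz tumors. This was a log2 fold change of −1.79 with a standard error of 0.53. In edgeR's quasi-likelihood test its adjusted p was 0.114, and DESeq2 gave an adjusted p of 0.014. The channel Panx1 had −0.14 (−0.28 to 0.04 with a tumor left out), and Panx2 was below the filter. Among receptors named P2X or P2Y, P2rx4, an ATP channel of macrophages, was at 0.26 on the log2 scale (standard error 0.11, edgeR adjusted p = 0.198). P2rx1 was at 0.91, P2rx6 at −0.65, P2ry12 at 0.47 and P2ry10 at −1.52 (edgeR adjusted p = 0.443, 0.230, 0.194 and 0.153). P2ry10, a receptor of lymphocytes, stands here by its name, and a response to nucleotides was not tested. P2rx3 and P2rx5 were below the filter. Without sgTaz tumor 5, the log2 fold changes of Slc17a9 and P2ry10 were −2.25 and −2.14, and that of P2rx1 was 0.43. Below P2X7, the inflammasome genes divided, with Casp1, the protease that matures interleukin 1 beta, at 113.0 ± 16.1 and 149.1 ± 14.99 CPM (SD, n = 5 each) and the adaptor Pycard at a log2 fold change of −0.40. For Casp1 the log2 fold change was 0.40 (standard error 0.11, edgeR adjusted p = 0.100), and DESeq2 gave an adjusted p of 0.023.

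Among 9 ectonucleotidases that passed the filter, 6 were higher and 3 lower, with a median log2 fold change of 0.27, where 47.0% of all genes were higher. None of the 9 passed edgeR's adjusted threshold, while 3 had an unadjusted p below 0.05, DESeq2 called 0 and limma-voom called 2. Over all genes the last 3 shares were 21.8%, 6.75% and 10.4%. Besides Entpd1 and Nt5e, Entpd2, which stops mostly at ADP, was the lowest at −0.61 (edgeR adjusted p = 0.376), and Entpd8 was below the filter. Cd38, an enzyme that splits extracellular NAD, had 0.27 (standard error 0.12, edgeR adjusted p = 0.206). The A3 receptor gene Adora3 was at 2.58 ± 0.456 and 4.00 ± 0.533 CPM (SD, n = 5 each), the highest log2 fold change of the 3 adenosine receptors that passed the filter at 0.63 (standard error 0.19, edgeR adjusted p = 0.114). In purine breakdown, guanine deaminase (Gda) was at 0.48 and urate oxidase (Uox), which degrades urate in the mouse, at −0.90 (standard errors 0.23 and 0.38, edgeR adjusted p = 0.250 and 0.199). Xdh and Uox stand on either side of urate, and the level was higher in sgTaz tumors for Xdh and lower for Uox. Neither passed edgeR's adjusted threshold.

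The remaining groups are given by their range. All 13 purine synthesis genes passed the filter, from −0.22 for Adssl1 to 0.16 for Impdh2 on the log2 scale, with a median of 0.04. Of these, 11 of 13 were above 0, where 47.0% of all genes were. Salvage ran from −0.22 for Aprt to 0.23 for Adk over 5 genes. The enzymes of AMP and adenosine inside the cell ran from −0.23 for Nt5c to 0.23 for Adk over 8 genes, with Nt5c1a listed at 0 counts in all tumors. Ampd1, AMP deaminase of muscle and lymphoid tissue, was below the filter at 1.42 ± 1.44 and 0.115 ± 0.222 CPM (SD, n = 5 each), with a DESeq2 adjusted p of 0.016. Nucleoside transporters ran from −0.27 for Slc28a2 to 0.30 for Slc29a3, where the value of Slc28a2 lay between −0.55 without sgTaz tumor 5 and 0.07 without sgCon tumor 3, with Slc28a3 and Slc29a4 below the filter, and the urate carriers Slc2a9 and Abcg2 were at 0.06 and 0.27. Xdh needs a molybdenum cofactor, and the 9 genes of its synthesis and of the other enzymes that use it ran from −0.71 for Mtarc1 to 0.23 for Gphn, with a median of 0.02 and Aox3 below the filter. None of the genes in this paragraph passed edgeR's threshold.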

How the data were processed

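Whole-tumor RNA of 10 tumors was sequenced on an Illumina HiSeq. Per the methods and the submitters' processing notes, the authors mapped reads to mm10 (GRCm38) with STAR and GENCODE annotation and counted reads per gene with featureCounts of Subread. Tool versions and the strand setting are not given in the sources used here. The deposited values are these raw read counts for 17864 genes, without normalization. The table holds 5 further columns of normal mammary fat pad that match no sample and were not used.

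From these counts, edgeR 4.0.16 in R 4.3.3 (TMM, filterByExpr by group, glmQLFit and glmQLFTest, adjusted p threshold 0.05) gave log2 fold changes over all 14816 genes that passed the filter. A standard error is the absolute log2 fold change divided by the square root of the F statistic. DESeq2 1.42.0, which the methods name, limma 3.58.1, other scalings and filters, each tumor left out and a replicate block were alternatives. Log2 CPM used a prior count of 2. Genes were named, placed and given exon lengths from GENCODE M21 (17860 of 17864 matched). Promoters are from RefSeq. A total of 3 counts is 1.53e-05% to 2.46e-05% of a tumor's counts, which covers counting error only.

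The 10 genes, the pathway and marker lists and the tests were chosen with earlier results of these data known. Besides the 10 genes and Wwtr1, the text names the highest and lowest gene of each pathway list, those called by edgeR or DESeq2, those below the filter, and the 3 genes most like each of the 9 that passed the filter, except 2 that are not reported here. Calls by limma-voom, P2rx4 and the single markers were added after their values were seen. Gda is named in addition, by none of these rules. On counts simulated for 14816 genes of this comparison with 200 changed, edgeR recovered 72% of 2-fold and 90% of 4-fold changes with 4 false calls of 166, DESeq2 80% and 96% with 44 of 220, and limma-voom 73% and 91% with 5 of 169. Each gene was drawn on its own, so differences between tumors that many genes share were not simulated. These rates therefore cannot be carried over to the tumors.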

Additional observations from a re-analysis of the deposited data

Results flagged for a closer look

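A value far from the others of its group was looked for in 42 groups of 5 tumors, the levels of the genes and the marker scores in each group, and 3 were found. Chance flags about 1 in 20 such groups, or 2.1 of 42. Adora2b was at 3.40 CPM in sgCon tumor 2, with 2.31 to 2.61 CPM in the other sgCon tumors. The T cell score was 4.80 in sgTaz tumor 5, with 2.98 to 3.50 in the other sgTaz tumors. The lymph node stroma score was 5.35 in the same tumor, with −2.12 to −0.59 in the other sgTaz tumors. In this tumor Dpp4 and Adora2a also had the highest level of their group.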

How the results depend on the processing

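The log2 fold changes of Xdh, Entpd1, P2rx7, Pnp, Dpp4 and Adora2a kept their sign in all 17 alternatives, with Entpd1 between 0.37 and 0.55, P2rx7 between 0.32 and 0.58, Dpp4 between −1.79 and −0.85 and Adora2a between −0.66 and −0.16. Those of Nt5e, Ada and Adora2b, all near 0 in the main fit, changed sign in 5, 2 and 4 of 17. Nt5e lay between −0.06 and 0.07, Ada between −0.12 and 0.02, and Adora2b between −0.34 with limma-voom and 0.10. Of these genes, the number past the adjusted threshold was 0 with edgeR, 1 with DESeq2, 3 with limma-voom and 1 with at least 10 counts in every tumor, and 0 to 1 with a tumor left out, the 1 being found without sgCon tumor 2, sgTaz tumor 2 or sgTaz tumor 5. Of the other pathway genes 0 passed with edgeR, 3 with DESeq2 and 7 with limma-voom, and 0 to 1 with a tumor left out, the 1 being Ampd1 without sgTaz tumor 5. Over all genes, 1 passed with edgeR, 1085 with DESeq2, 1546 with limma-voom, 0 without a filter (3610 at an unadjusted p below 0.05) and 5 with at least 10 counts in every tumor. With a tumor left out it was 0 to 172, with 75 without sgTaz tumor 2 and 172 without sgTaz tumor 5. The causes were not tested. On counts simulated for each gene on its own, DESeq2 made 44 false calls of 220, limma-voom 5 of 169 and edgeR 4 of 166. The share of false calls in the tumors was not tested.

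Tumors with the same replicate number did not deviate together (correlations of −0.15, −0.24, −0.05, 0.09 and 0.22), so the numbers were not read as pairs. With the replicate number as a block, 0 genes passed (2462 at an unadjusted p below 0.05), and 0 of the 9 genes did. The overlap count without sgTaz tumor 5 was chosen after seeing the data. Depth limits Adora1, at 21 counts or fewer in each tumor.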
